A study of Mus musculus with 4 samples.

Results

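Electrically stimulated mouse dorsal root ganglia were compared between a late and an early harvest. The study measured RNA in explant cultures of ganglia from C57BL/6 embryos at embryonic day 13, in 4 libraries of 1 per group. ES cultures were stimulated at day in vitro (DIV) 10 with 20 Hz and 50 mV/mm for 1 h, and were harvested at 19 DIV or at 11 DIV. Control cultures were not stimulated and were harvested at the same ages. All cultures grew on Matrigel coverslips, were kept in growth medium until DIV 8 and then in myelination medium, and gave 1 library from the pooled RNA of 3 explants. The ES libraries at 19 and 11 DIV stand 9 days and 1 day after the day of stimulation, and the unstimulated libraries give the same interval of 8 days without it. Both libraries of the ES pair are whole explants, in which neurons, Schwann cells and connective tissue cells are read together. All 12 sensory neuron markers and 10 of 11 Schwann cell markers had reads in the ES pair.

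Reads were counted per gene symbol over 23282 rows. The rows described first are the 1475 with a mean of 1000 or more reads in the ES libraries. Just inside that limit stood Zfr with 1226 reads at 19 DIV and 774 at 11 DIV, and just outside stood Zrsr2 with 724 reads at 19 DIV and 1275 at 11 DIV. The ES libraries held 7830950 reads at 19 DIV and 5782834 at 11 DIV, and the control libraries 6730614 reads at 19 DIV and 6197537 at 11 DIV. Levels are given as CPM, reads scaled to a common library size, with TMM setting that scale from the bulk of the genes, and a ratio is CPM at 19 DIV over CPM at 11 DIV. With 1 library per group there is no replicate check, no test and no p-value, and every difference below is between 2 libraries. Counts scattered between the ES libraries far more than counting error. For 2800 rows of middling count, the squared difference was divided by its Poisson variance. The median of this quotient was 259.8 times the median that counting error alone would give. A stricter rule therefore asked for at least 2-fold and for a 99% Clopper-Pearson interval, computed on counts divided by that factor, that left out equality. By counting error alone, the 95% interval of the Igfbp4 ratio, for example, ran from 7.38 to 8.44. The factor holds real differences as well as technical scatter, and the interval does not stand in for replicates.

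Dorsal root ganglia hold the cell bodies of sensory neurons, their satellite glia, and Schwann cells that wrap the axons in culture. In myelination medium, Schwann cells deposit a basal lamina, switch on Pou3f1 and then Egr2, and make the myelin proteins and lipids of the sheath. Insulin-like growth factors act on both neurons and glia through a receptor tyrosine kinase, and secreted binding proteins hold or release them in the matrix.

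The 19 DIV library of stimulated ganglia was higher in 3 insulin-like growth factor binding proteins, fibrillar collagens and matrix protease inhibitors, and lower in neuronal cytoskeleton genes, the neuropeptide gene Tac1 and glycolysis genes. Of the 1475 rows, 203 were at least 2-fold higher (13.8%) and 141 at least 2-fold lower (9.56%) at 19 DIV. Both directions came to 23.3% of rows. The ES 19 DIV library is the deeper, and with its reads thinned to the total of the ES 11 DIV library 130 of 1203 rows were higher and 128 lower, with a median of -0.002. The stricter rule kept 16 higher (1.08%) and 24 lower (1.63%), together 2.71%. The median log2 difference over the 1475 rows was 0.08, with quartiles of -0.43 and 0.62, and 53.5% of the rows lay above equality. In the unstimulated pair, 1327 rows passed the same read limit, of which 161 were 2-fold higher (12.1%) and 180 lower (13.6%), together 25.7%, and 53.1% of rows lay below equality. The stricter rule kept 16 higher (1.21%) and 45 lower (3.39%) there, together 4.6%. The unstimulated pair thus held about as many 2-fold differences. Counts of calls are therefore a background for each gene group and do not set the stimulated pair apart.

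**Figure D1:**
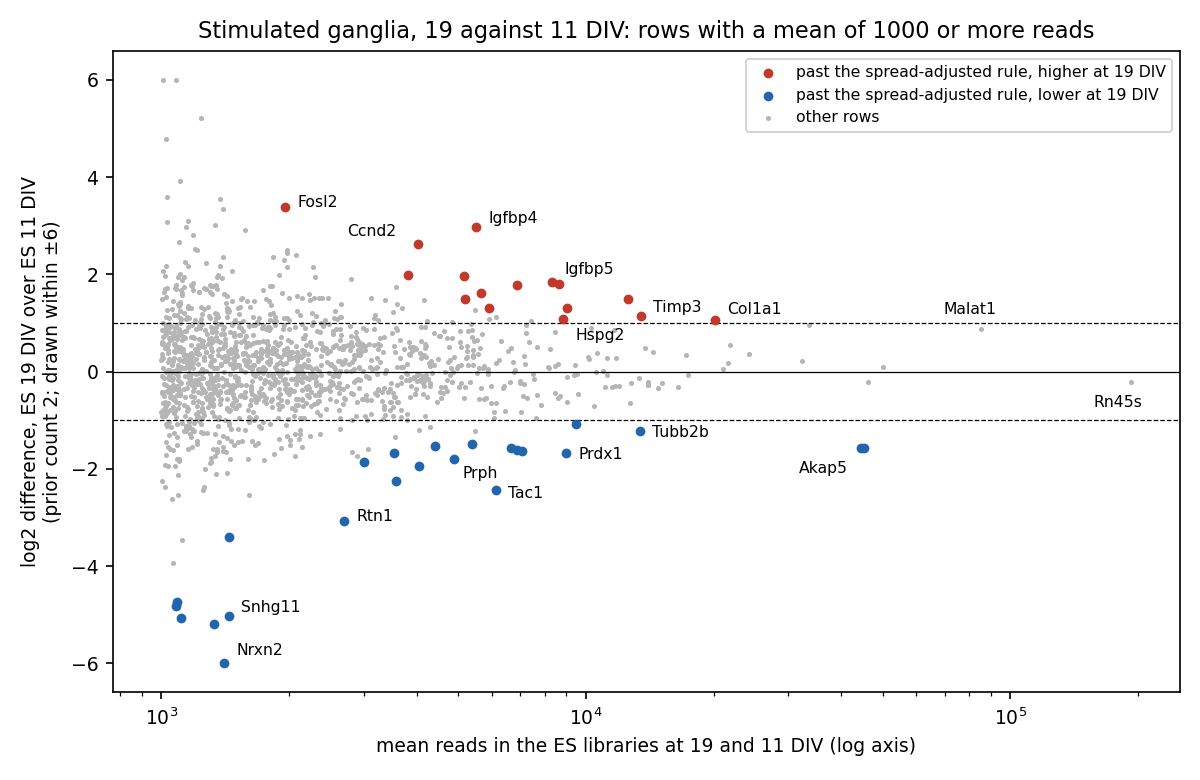
Log2 difference of ES 19 DIV over ES 11 DIV (vertical axis, prior count of 2) against mean reads in the ES libraries (horizontal log axis) for the 1475 rows, each point 1 row; coloured points passed the stricter rule and dashed lines mark 2-fold. The 16 higher rows include Fosl2 and Igfbp4, and the 24 lower rows include Nrxn2 and Tac1.

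Binding proteins for insulin-like growth factors stood at the top. Igfbp4, which binds the factors and holds them from the receptor, had 1262 CPM in the ES 19 DIV library and 160.0 CPM in the ES 11 DIV library, with 221 CPM in control at 19 DIV and 145 CPM in control at 11 DIV. Its ratio was 7.89 in the stimulated pair (stricter interval 2.15 to 55.5) and 1.53 in the unstimulated pair. Igfbp5, which also binds matrix, had 1725 and 483 CPM in ES at 19 and 11 DIV, and 752 and 897 CPM in control at 19 and 11 DIV. For both genes the ES 19 DIV library stood above the other 3 libraries. Igfbp7, a secreted relative that binds the factors weakly, had 1419.7 and 414 CPM in ES at 19 and 11 DIV, and 539.7 and 656 CPM in control at 19 and 11 DIV. The ratios of Igfbp5 and Igfbp7 were 3.57 and 3.43 in the stimulated pair, and 0.838 and 0.822 in the unstimulated pair.

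Igfbp7 on chromosome 5 (77349240 to 77408041, minus strand, GRCm38) overlaps at its 3′ end the 3′ end of Polr2b (77310147 to 77349324, plus strand), a core subunit gene of RNA polymerase II. Polr2b had 1088 and 277 CPM in ES at 19 and 11 DIV and a ratio of 3.92, close to that of Igfbp7. Whether counting used strand is not stated, so the reads of these neighbours cannot be told apart. Of the 15 genes on the list of factors, receptors and binding proteins, 5 passed the read limit and these 3 binding proteins were the ones past 2-fold. Igf1r, the receptor, had a ratio of 0.916, and Igf2bp2, an RNA-binding protein of Igf2 messages, 1.05. The median of the 5 was 1.78 on the log2 scale in the stimulated pair and 0.04 in the unstimulated pair, beside 0.08 over all 1475 rows. It rests on the most abundant members: at a limit of 500 reads the median was 0.30 over 7 members, and at 50 reads 0.067 over 13. Of the 8 members with 50 to 1000 reads, 4 were above and 4 below equality.

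The promoters of these 3 genes are printed because all 3 genes passed the stricter rule in the same direction. Each line gives the 250 bases before the annotated start, from RefSeq on GRCm38.p6, 5′ to 3′ on the gene's strand, with the motif TATAAA in capitals where it occurs.
Igfbp4, chr11:99040994-99041243, plus strand: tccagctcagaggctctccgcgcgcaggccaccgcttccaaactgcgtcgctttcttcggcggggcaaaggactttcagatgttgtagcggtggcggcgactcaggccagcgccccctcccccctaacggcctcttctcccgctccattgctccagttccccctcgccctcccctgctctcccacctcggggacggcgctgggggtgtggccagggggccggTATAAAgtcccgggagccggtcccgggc
Igfbp5, chr1:72874866-72875115, minus strand: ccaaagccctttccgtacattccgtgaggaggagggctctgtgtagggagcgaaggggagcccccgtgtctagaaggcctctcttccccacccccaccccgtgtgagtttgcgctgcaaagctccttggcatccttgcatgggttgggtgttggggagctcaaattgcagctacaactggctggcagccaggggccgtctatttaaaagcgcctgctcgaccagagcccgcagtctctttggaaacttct
Igfbp7, chr5:77408046-77408295, minus strand: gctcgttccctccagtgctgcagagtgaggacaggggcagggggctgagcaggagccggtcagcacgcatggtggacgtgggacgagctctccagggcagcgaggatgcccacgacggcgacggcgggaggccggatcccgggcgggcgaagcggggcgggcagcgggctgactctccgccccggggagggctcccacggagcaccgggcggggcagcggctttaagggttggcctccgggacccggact
Igfbp4 carried TATAAA at -28 from its start, and the other 2 windows held no exact match on either strand. Over windows of this length, TATAAA on either strand stood in 13% of all 27025 promoters in the table and in 6.58% of the 1125 promoters matched to rows past the read limit. Among genes past the stricter rule it stood in 1 of 11 matched promoters of the higher and 4 of 17 of the lower genes. The AP-1 motif TGANTCA, searched on both strands, stood in 0 of 11 and 2 of 17, beside 3.91% of the 1125 windows. A match describes the letters only, and no match says nothing of a factor.

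Interstitial matrix genes were higher together. All 17 members of the fibrillar collagen and interstitial matrix list that passed the read limit, of 35 named, lay above equality, against 53.5% of all rows, and 8 were 2-fold higher. Their median was 0.95, against 0.44 in the unstimulated pair, where 14 of the 17 lay above equality. Col1a1, a chain of type I collagen, had 3725 and 1785 CPM in ES at 19 and 11 DIV, and 2493 and 1309.7 CPM in control at 19 and 11 DIV. Col1a2, the partner chain, had 6074 and 3144 CPM in ES at 19 and 11 DIV, and 4909 and 2095 CPM in control at 19 and 11 DIV. Both type I chains were higher at 19 DIV with and without stimulation, with ratios of 2.09 and 1.93 in ES, and 1.90 and 2.34 in control.

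Other collagens varied. Col5a2, a chain of the type V collagen that sets fibril width, had 802 and 203 CPM in ES at 19 and 11 DIV, against 316 and 312 CPM in control at 19 and 11 DIV, ratios of 3.95 in ES and 1.01 in control. Col14a1, a fibril-associated collagen, had 2203 and 344 reads in ES at 19 and 11 DIV against 468 and 642 reads in control at 19 and 11 DIV, ratios of 4.75 in ES and 0.613 in control. Of these 2, Col5a2 passed the stricter rule. Col3a1, a fibrillar collagen of loose tissue, had a ratio of 1.86 in ES and 1.12 in control. Col8a1, a short-chain collagen, was 2-fold higher in both pairs, at 3.77 in ES and 2.57 in control. Thbs2, Tnc, Postn, Fbln5 and Fbln2, which encode matricellular and elastic fibre proteins, had ratios of 3.82, 2.41, 2.23, 2.16 and 2.08 in ES.

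Matrix proteases and their inhibitors followed, with 4 of 11 members 2-fold higher and 0 lower, beside 13.8% higher and 9.56% lower over all rows. Their median was 0.91 against -0.05 in the unstimulated pair. It rests on the abundant members: of 9 others with 50 to 1000 reads, 5 lay above and 4 below equality. Of those 9, 5 were at 0 in 1 ES library. Timp3, a matrix-bound inhibitor of metalloproteases, had 2527 and 1139.6 CPM in ES at 19 and 11 DIV, and 1809 and 1063 CPM in control at 19 and 11 DIV (ratios 2.22 in ES and 1.70 in control). It lies within Syn3, which runs on the opposite strand, so reads of that gene could not be kept apart. Serpine2, a glial inhibitor of thrombin and plasminogen activators, had 1744 and 701 CPM in ES at 19 and 11 DIV, and 902 and 936 CPM in control at 19 and 11 DIV. Its ratios were 2.49 in ES and 0.964 in control. Plat, a plasminogen activator, and Adamts5, which cleaves proteoglycans, had ratios of 2.26 and 2.20 in ES, and 1.10 and 0.870 in control. Spp1, osteopontin, had 1.40 in ES and 0.360 in control.

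Basal lamina genes gave smaller values. Of 13 measured members, 2 were 2-fold higher and 0 lower, and the median of 0.14 was below the 0.86 of the unstimulated pair. Hspg2, perlecan, had 1639.6 and 777 CPM in ES at 19 and 11 DIV, and 1168 and 553 CPM in control at 19 and 11 DIV, the same ratio of 2.11 in both pairs. Col4a1, a chain of the network collagen of basal laminae, had 1.05 in ES and 2.05 in control. Sparc, a collagen-binding glycoprotein, had 1.07 in ES and 1.53 in control.

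Fibroblast markers overlap with the matrix genes and so give no separate evidence. The 10 marker genes summed to 12585 CPM in ES at 19 DIV and 6468 CPM in ES at 11 DIV, and to 9045 and 4772 CPM in control at 19 and 11 DIV. Of these, 4 passed the read limit (Col1a1, Col1a2, Col3a1, Dcn), and the matrix list holds them too. Dpt and Osr2 were at 0 in both ES libraries. The 8 perineurial markers summed to 298 and 116 CPM in ES at 19 and 11 DIV, with 4 of the 8 at 0, and the 7 pericyte markers to 388 CPM at 19 DIV and 203 CPM at 11 DIV, with Kcnj8 and Abcc9 at 0. In such mixed explants, fewer cells of a type and less RNA per cell cannot be told apart, and the part of cell type makeup in the matrix values was not tested.

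**Figure D2:**
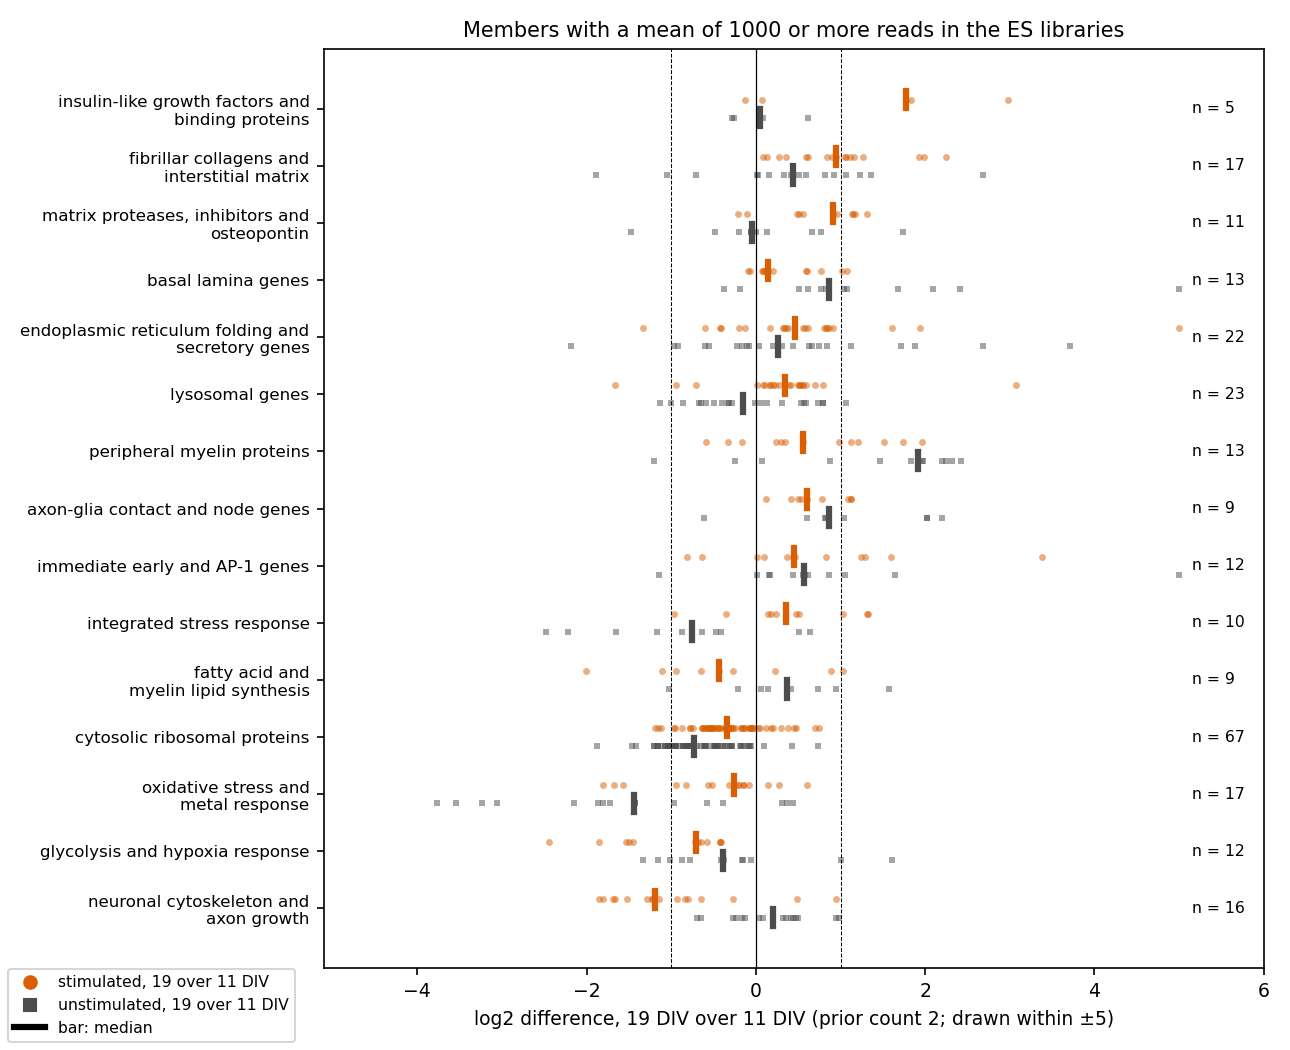
Log2 difference of 19 DIV over 11 DIV (horizontal axis, prior count of 2, drawn within ±5) for members of 15 gene lists with a mean of 1000 or more reads in the ES libraries; circles are the stimulated pair, squares the unstimulated pair, bars the medians, dashed lines 2-fold. The fibrillar collagen circles all lie right of 0, and the neuronal cytoskeleton circles have their median at -1.19, against 0.20 for the squares.

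Other genes at the top of the list had varied roles. Fosl2, an AP-1 transcription factor subunit, had 458 and 43.7 CPM in ES at 19 and 11 DIV, and 277 and 134 CPM in control at 19 and 11 DIV, ratios of 10.5 in ES and 2.07 in control. Ccnd2, cyclin D2 of the G1 phase, had 901 and 146 CPM in ES at 19 and 11 DIV, and 671 and 509.9 CPM in control at 19 and 11 DIV. Its low value was the ES 11 DIV library, below both controls. Ahnak, a very large scaffold protein under the cell membrane, had 1784 and 511 CPM in ES at 19 and 11 DIV, and 770.2 and 575 CPM in control at 19 and 11 DIV. Cyb5r3, which reduces cytochrome b5 for fatty acid desaturation, had 2488 and 885 CPM in ES at 19 and 11 DIV, and 1215 and 1803 CPM in control at 19 and 11 DIV. For Cyb5r3 the ratio was 2.81 in ES and 0.674 in control.

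Of the rest of the 16, Ppap2b, a lipid phosphate phosphatase, had a ratio of 2.84 in ES and 0.800 in control. Qk, an RNA-binding protein of glia that acts on myelin messages, had 2.48 in ES and 2.84 in control. Hsp90b1, the chaperone of the endoplasmic reticulum in its family, had 3.06 in ES and 1.67 in control. Malat1, an abundant nuclear noncoding RNA, missed 2-fold with 121515 reads in ES at 19 DIV and 48843 at 11 DIV, a ratio of 1.85 (interval 1.48 to 2.32), against 1.01 in control.

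**Figure D3:**
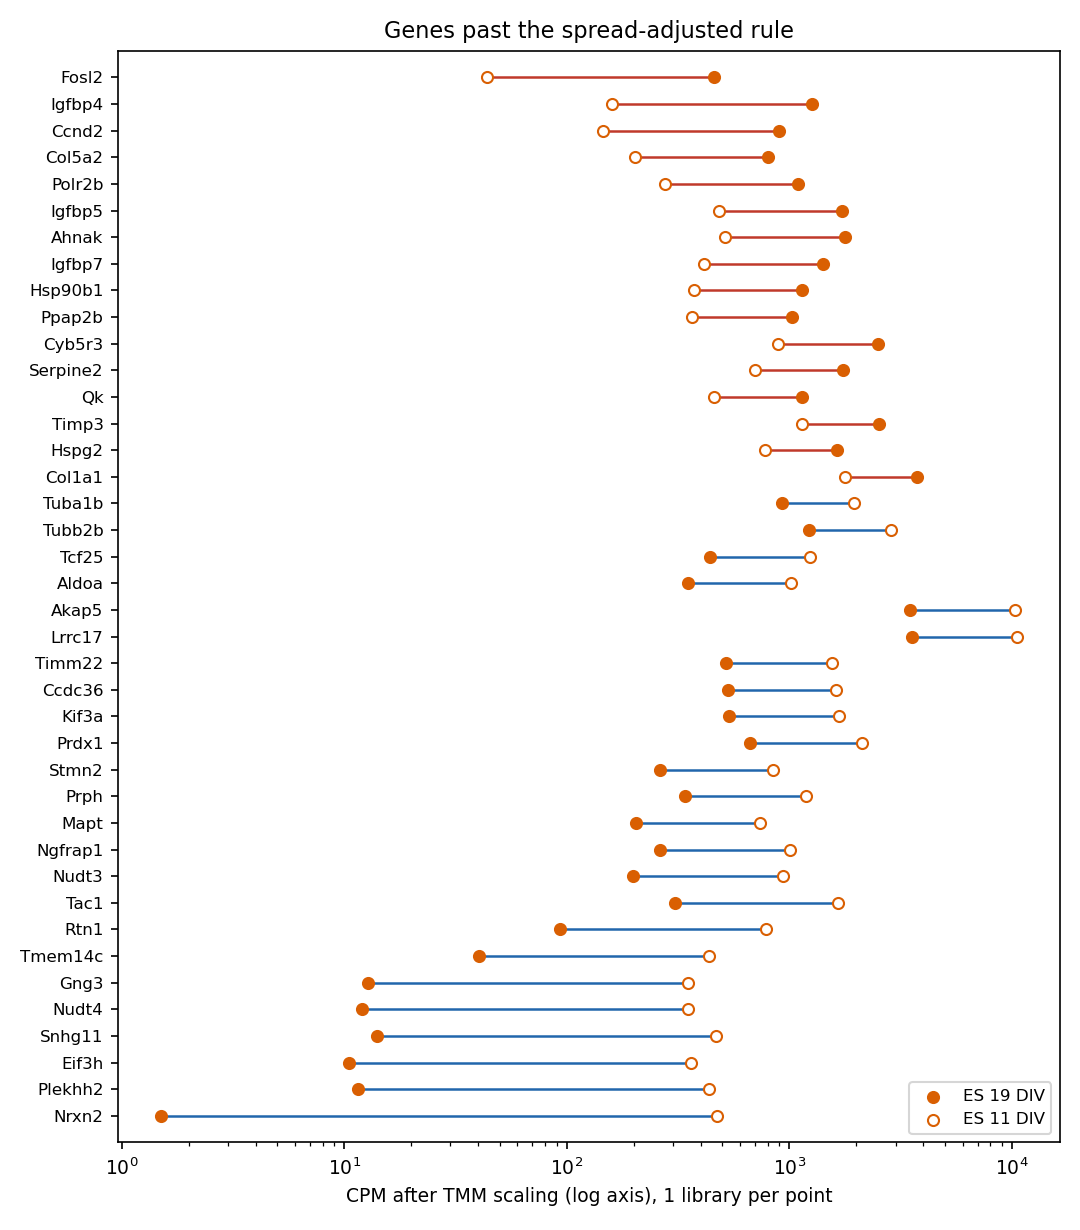
CPM (horizontal log axis) of the 40 genes past the stricter rule in ES at 19 and 11 DIV, 1 row per gene and 1 library per point. Igfbp4 reads 1262 CPM in ES at 19 DIV and 160.0 CPM in ES at 11 DIV, and Tac1 reads 308 CPM at 19 DIV and 1659 CPM at 11 DIV.

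Neuronal cytoskeleton genes were lower at 19 DIV. Of 28 genes on the neuronal cytoskeleton and axon growth list, 16 passed the read limit: 9 were 2-fold lower, 0 higher, and 14 lay below equality, against 46.5% of all rows. Their median was -1.19 in the stimulated pair and 0.20 in the unstimulated pair, where 10 of the 16 lay above equality. A further 10 members had 50 to 1000 reads, of which 9 lay below equality. Prph, peripherin, an intermediate filament of peripheral neurons, had 340.2 and 1192 CPM in ES at 19 and 11 DIV, and 906 and 667 CPM in control at 19 and 11 DIV. Stmn2, a tubulin-binding protein of growing axons, had 262 and 841 CPM in ES at 19 and 11 DIV, and 789 and 616 CPM in control at 19 and 11 DIV. Mapt, tau, had 204 and 739 CPM in ES at 19 and 11 DIV, and 552 and 279 CPM in control at 19 and 11 DIV.

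In each of these 3 genes the ES 19 DIV library was the lowest of the 4 and the ES 11 DIV library the highest. Ratios were 0.285, 0.311 and 0.277 in ES, and 1.36, 1.28 and 1.98 in control. Tubb2b, a beta tubulin of young neurons, had 1227 and 2871 CPM in ES at 19 and 11 DIV, and 2004 and 2412 CPM in control at 19 and 11 DIV, ratios of 0.427 in ES and 0.831 in control. Tubb3, the neuronal beta tubulin, had a ratio of 0.315 (interval 0.0727 to 1.09), and Gap43, a growth cone protein, 0.349 (interval 0.0607 to 1.51), so neither passed the stricter rule. Marcks, which regulates actin at the membrane and is not restricted to neurons, and Map1a were the 2 members above equality, with ratios of 1.41 and 1.93.

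Tac1, the precursor of substance P in nociceptors, had 2456 reads in ES at 19 DIV and 9825 at 11 DIV, and 7795 and 3407 reads in control at 19 and 11 DIV. In CPM these were 308 and 1659 in ES at 19 and 11 DIV, and 1131 and 588 in control at 19 and 11 DIV. The ratio of 0.185 (interval 0.0610 to 0.467) in ES stood beside 1.92 in control. Calca, the precursor of the peptide CGRP in overlapping neurons, had 319 and 404 CPM in ES at 19 and 11 DIV, and 964 and 739.7 CPM in control at 19 and 11 DIV, a ratio of 0.790. The 2 peptide genes thus differed in size of ratio, and Calca was under 2-fold.

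Ngfrap1, which binds the low-affinity neurotrophin receptor, had 262 and 1010.1 CPM in ES at 19 and 11 DIV, and 611 and 327 CPM in control at 19 and 11 DIV. Bdnf, a neurotrophin made by some sensory neurons, had 870 and 1500 reads in ES at 19 and 11 DIV against 1250 and 398 reads in control at 19 and 11 DIV. Ngfr, the low-affinity receptor, which Schwann cells also express, had ratios of 1.07 in ES and 1.12 in control. Sncg, gamma-synuclein of sensory neurons, had 0.499 in ES and 2.51 in control, the 1 of 3 measured sensory identity genes past 2-fold. Of 17 further genes on the sensory identity list with 50 to 1000 reads, 8 lay above and 9 below equality. On the neurotrophin list 8 of 12 such genes lay above equality and 4 below. On the neuropeptide and nociceptor list 3 of 12 lay above and 9 below. Of the synaptic vesicle list, 2 of 35 members passed the read limit, and of 26 with 50 to 1000 reads 21 lay below equality and 6 were at 0 in 1 library.

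Further lower genes had few reads left in the ES 19 DIV library. Nrxn2, a presynaptic adhesion protein, had 12 reads in ES at 19 DIV and 2800 at 11 DIV, against 2336 and 248 in control at 19 and 11 DIV. Its ratios were 0.00318 in ES and 7.92 in control, and it overlaps Slc22a12. Snhg11, a small nucleolar RNA host gene, had 112 and 2767 reads in ES at 19 and 11 DIV against 1372 and 629 in control at 19 and 11 DIV. Gng3, a G protein gamma subunit of neurons, had 102 and 2073 reads in ES at 19 and 11 DIV against 1408 and 1056 in control at 19 and 11 DIV. For both, the controls lay between the ES libraries in reads, with control ratios of 1.83 for Snhg11 and 1.12 for Gng3.

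Rtn1, a reticulon of the neuronal endoplasmic reticulum, had 93.0 and 783 CPM in ES at 19 and 11 DIV, and 320.3 and 303 CPM in control at 19 and 11 DIV. Plekhh2 had 92 and 2572 reads in ES at 19 and 11 DIV against 102 and 807 in control at 19 and 11 DIV, lower at 19 DIV in both pairs. Eif3h, a subunit of translation initiation factor eIF3, had 84 and 2143 reads in ES at 19 and 11 DIV against 1166 and 1264 in control at 19 and 11 DIV. Nudt4 had 0.0345 and Nudt3, which dephosphorylates inositol polyphosphates, 0.210 in ES, against 1.12 and 1.09 in control. Of the 24 lower genes, 6 had under 150 reads in the ES 19 DIV library.

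Sensory neuron markers overlap with these genes and so give no separate evidence. The 12 markers summed to 1516 CPM in ES at 19 DIV and 4552 CPM in ES at 11 DIV, and to 4239 and 2850 CPM in control at 19 and 11 DIV. Of the 5 that passed the read limit (Calca, Elavl4, Tubb3, Prph, Tac1), all 5 stand on the neuronal lists above and 3 were 2-fold lower. Of 6 other markers with 50 to 1000 reads, 2 lay above and 4 below equality, and no marker of the 12 was at 0 in both ES libraries. The ES 19 DIV sum was the lowest of the 4 libraries and the ES 11 DIV sum the highest. The markers of sympathetic neurons, the other neurons a dissection could carry, summed to 11.3 CPM in ES at 19 DIV and 0 CPM in ES at 11 DIV, with 5 of 6 at 0. The part of neuron number in these values was not tested.

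**Figure D4:**
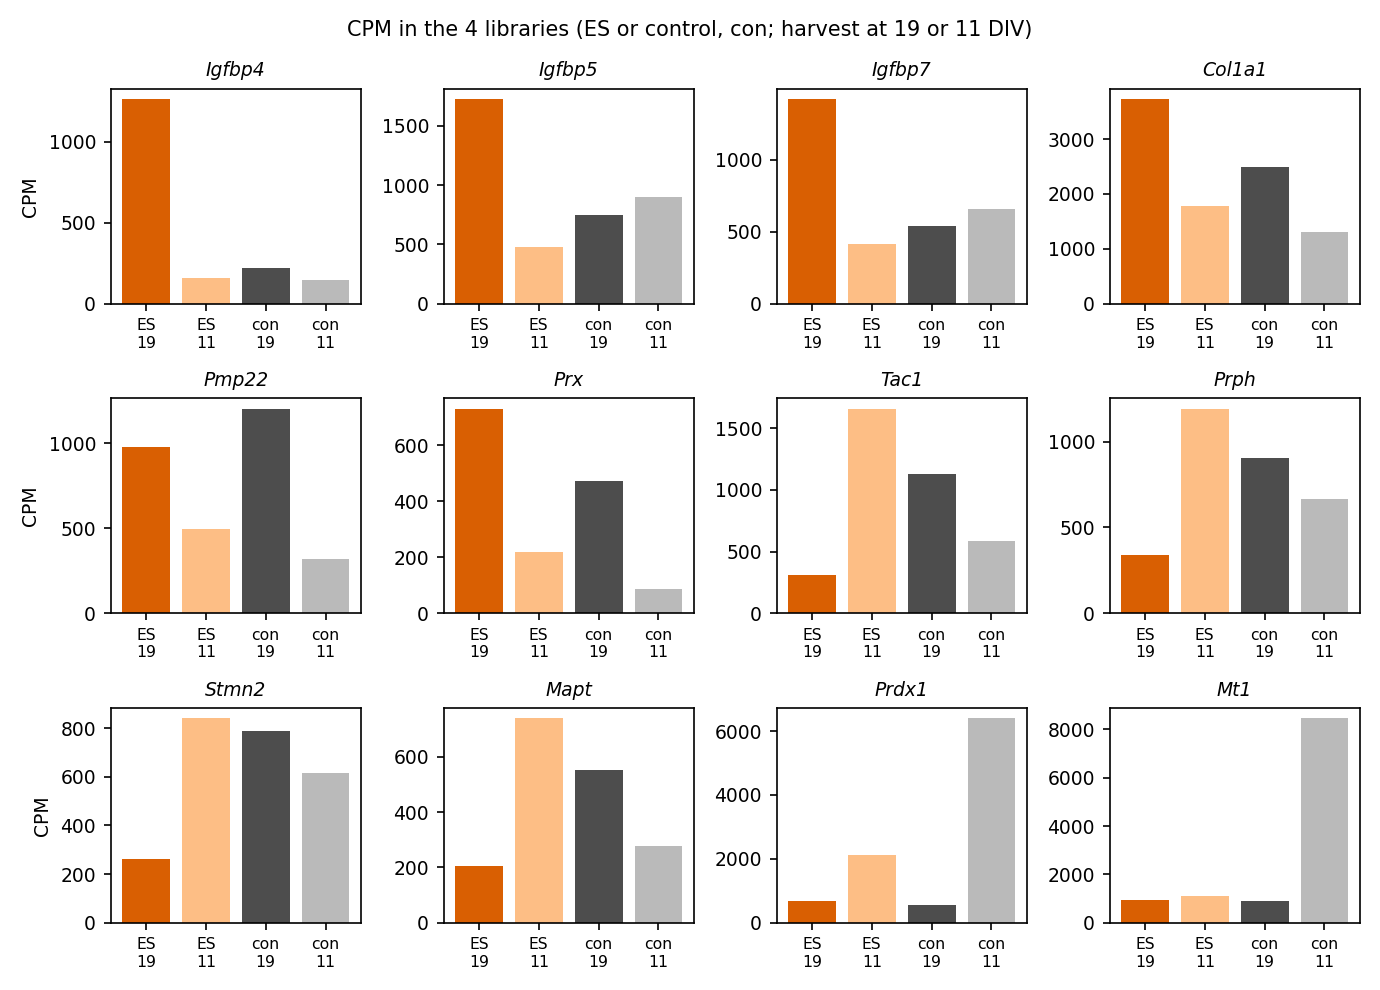
CPM (vertical axes from 0) of 12 genes in the 4 libraries, 1 bar per library: ES at 19 and 11 DIV, then control (con) at 19 and 11 DIV. Prph, Stmn2, Mapt and Tac1 are lowest in ES at 19 DIV, while Mt1 is at 8456 CPM in control at 11 DIV and from 900.3 to 1087 CPM in the other 3.

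Among the 24 lower genes, 5 rows shared 1 profile. Akap5 on chromosome 12, an anchoring protein of kinase A, had 27830 reads in ES at 19 DIV and 61142 at 11 DIV, and 25555 and 52835 in control at 19 and 11 DIV. Lrrc17 on chromosome 5, a secreted leucine-rich repeat protein, had 28289 and 62323 in ES at 19 and 11 DIV, and 25267 and 53058 in control at 19 and 11 DIV, within 1.93% of Akap5 in every library. Kif3a, Ccdc36 and Timm22 had ratios of 0.320, 0.327 and 0.336 in ES, and 0.398, 0.403 and 0.411 in control, within 10% of the Akap5 ratios of 0.338 in ES and 0.406 in control. Of the 1082 rows past the read limit in both pairs, no other matched the Akap5 ratios this closely. The match was noticed after the values were seen. Whether these genes share reads was not tested, so the 5 rows are uncertain, and without them 19 rows were lower by the stricter rule. Near-equal counts were not limited to these rows. Among the 1475 rows, 13 pairs lay within 5% of each other in all 4 libraries, Akap5 and Lrrc17 being 1 of them. Wdr89 had 14715 and 13273 reads in ES at 19 and 11 DIV, and Rplp2-ps1 had 14715 and 13272. Other pairs included Pcdhga9 and Rpl13, Calu and Calr, and Gstp1 and Gstp2. Shared reads were not tested for any pair.

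Peripheral myelin genes were higher at 19 DIV in part. Of 13 members measured of 21 named, 5 were 2-fold higher and 0 lower, none passed the stricter rule, and the median of 0.55 stood beside 1.92 in the unstimulated pair. Pmp22, a tetraspan protein of compact myelin, had 979 and 494 CPM in ES at 19 and 11 DIV, and 1201 and 317 CPM in control at 19 and 11 DIV, ratios of 1.98 in ES and 3.78 in control. The control 11 DIV library was the lowest of the 4. Mbp, which compacts the cytoplasmic face, had 1033 and 1154 CPM in ES at 19 and 11 DIV, and 1532 and 832 CPM in control at 19 and 11 DIV. For Mbp the ratio was 0.895 in ES and 1.84 in control.

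Other sheath genes ranged widely. Prx, periaxin, which links the sheath to the basal lamina, had 731 and 218 CPM in ES at 19 and 11 DIV, and 474 and 88.0 CPM in control at 19 and 11 DIV, ratios of 3.35 in ES and 5.38 in control. Mag, the adhesion protein facing the axon, had 456 and 159.9 CPM in ES at 19 and 11 DIV, and 216 and 43.2 CPM in control at 19 and 11 DIV. Pmp2, a fatty acid binding protein of myelin, and Gldn, the nodal ligand gliomedin, had ratios of 2.31 and 2.18 in ES, and 3.91 and 4.63 in control. Cmtm5 had 3.92 in ES and 0.433 in control. Cnp, an enzyme of uncompacted myelin, had 0.666 in ES and 3.56 in control.

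Among transcription factors of Schwann cells, Pou3f1, of the promyelinating stage, had 1048 and 436 CPM in ES at 19 and 11 DIV, and 1703 and 439 CPM in control at 19 and 11 DIV. Its ratios were 2.40 in ES and 3.88 in control. Egr2, the master regulator of myelin genes, had 1935 and 585 reads in ES at 19 and 11 DIV against 393 and 3 reads in control at 19 and 11 DIV. Its ES interval of 0.342 to 44.1 covered equality. Sox10, the lineage factor, had 1.15 in ES and 1.01 in control, so it was under 2-fold in both pairs. Of the 6 myelination factors measured, 3 were 2-fold higher and 0 lower. Of 7 immature and repair Schwann cell genes, 1 was higher and 2 lower, with L1cam, an adhesion molecule of unmyelinated axons and their glia, at 0.484 beside Gap43. The higher was Sox2, of immature Schwann cells, with 1927 and 446 reads in ES at 19 and 11 DIV against 529 and 630 reads in control at 19 and 11 DIV.

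All 9 measured axon-glia contact genes lay above equality in ES, against 53.5% of all rows, and 3 passed 2-fold. Their median was 0.60 against 0.86 in the unstimulated pair. Of 13 further members with 50 to 1000 reads, 5 lay above and 8 below equality, and 3 were at 0 in 1 ES library. Itgb1 and Itga6, laminin receptor subunits, had ratios of 2.19 and 2.12 in ES, and 0.652 and 1.52 in control. Kcna1 and Kcna2, potassium channels beside the node, had 1.41 and 1.72 in ES, and 4.07 and 4.08 in control. The 11 Schwann cell markers summed to 10054 and 7515 CPM in ES at 19 and 11 DIV, and to 11657 and 4282 CPM in control at 19 and 11 DIV, with Cdh19 at 0 in both ES libraries. S100b, a glial calcium-binding protein, was at 0 reads in ES at 19 DIV and 1118 at 11 DIV, and at 49 and 719 in control at 19 and 11 DIV, against the direction of the summed markers. The part of Schwann cell number in the myelin values was not tested.

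Lipid synthesis genes of the sheath were mixed. Of 9 fatty acid and myelin lipid genes, 1 was 2-fold higher and 2 lower, with a median of -0.43 against 0.37 in the unstimulated pair. Fasn, fatty acid synthase, had 633 and 1899 reads in ES at 19 and 11 DIV against 1067 and 1039 in control at 19 and 11 DIV. Scd2, a desaturase, had 788 and 1517 CPM in ES at 19 and 11 DIV, and 1282 and 964 CPM in control at 19 and 11 DIV. Elovl5, an elongase of polyunsaturated fatty acids, had 2.05 in ES and 2.99 in control. The 6 measured cholesterol genes had a median of 0.23, against 0.74 in the unstimulated pair, with Hmgcs1, which makes the precursor of mevalonate, at 1.05 in ES and 1.79 in control.

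Glycolysis and hypoxia genes were lower as a list. All 12 measured members lay below equality, against 46.5% of all rows, and 5 were 2-fold lower. The median was -0.70 against -0.39 in the unstimulated pair, where 10 of the 12 lay below equality. By the 2-fold rule 3 of them were lower and 2 higher there. Of 16 further members with 50 to 1000 reads, 10 lay below and 6 above equality in ES. Aldoa, a glycolytic aldolase, had 350.4 and 1017 CPM in ES at 19 and 11 DIV, and 775 and 1567 CPM in control at 19 and 11 DIV. Bnip3l, of mitochondrial clearance, and Gpi1, of glycolysis, had ratios of 0.183 and 0.277 in ES, and 0.446 and 0.751 in control. Ldha and Pkm, late enzymes of glycolysis, were under 2-fold in ES at 0.746 and 0.607.

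Oxidative stress genes had larger values in the unstimulated pair. Of 17 measured members, 3 were 2-fold lower and 0 higher in ES, and the median was -0.26 in ES against -1.43 in control, where 11 of the 17 were 2-fold lower. Prdx1, a peroxidase of hydrogen peroxide, had 666 and 2128 CPM in ES at 19 and 11 DIV, and 551 and 6401 CPM in control at 19 and 11 DIV. It was the member of this list past the stricter rule in ES. The metallothioneins Mt1 and Mt2, which bind zinc and copper, had 945 and 1087 CPM and 657 and 1161 CPM in ES at 19 and 11 DIV, against 900.3 and 8456 CPM and 684 and 9343 CPM in control at 19 and 11 DIV. The high library for both was control at 11 DIV, and the stimulated pair did not show a 2-fold difference in either.

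Secretory and stress response genes lay more often above equality than below. Of 22 endoplasmic reticulum folding genes, 16 lay above equality in ES, against 53.5% of all rows, and 13 in the unstimulated pair. By the 2-fold rule 3 were higher, 1 lower and 18 neither in ES, beside 13.8% higher and 9.56% lower over all rows. The median was 0.47 against 0.26 in the unstimulated pair, where 5 were 2-fold higher and 1 lower. Hspa5, the main chaperone of that compartment, had 2071 and 1141 CPM in ES at 19 and 11 DIV, and 1385 and 1616 CPM in control at 19 and 11 DIV, a ratio of 1.82 (interval 0.991 to 3.49). Pdia4, a disulfide isomerase, had 2436 and 47 reads in ES at 19 and 11 DIV against 690 and 89 in control at 19 and 11 DIV. Of 10 integrated stress response genes, 8 lay above equality in ES, against 53.5% of all rows, and 2 in the unstimulated pair. In ES 3 were 2-fold higher (Gars, Nars and Eif4ebp1, at 2.50, 2.49 and 2.04) and 0 lower. The median was 0.36 against -0.75 in the unstimulated pair. Gars and Nars charge transfer RNAs with glycine and asparagine, and Eif4ebp1 holds back cap-dependent translation.

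Of 23 lysosomal genes, 20 lay above equality in ES, against 53.5% of all rows, and 10 in the unstimulated pair. In ES, however, 1 was 2-fold higher and 1 lower, with a median of 0.34 against -0.15 in the unstimulated pair. The higher was Grn, progranulin, with 1894 and 166 reads in ES at 19 and 11 DIV against 768 and 618 in control at 19 and 11 DIV. The lower was Tpp1, a peptidase, at a ratio of 0.315. Macrophages are rich in lysosomes, and their 15 markers summed to 143 CPM in ES at 19 DIV and 77.0 CPM at 11 DIV, with 7 at 0 in both, among them Adgre1 and Aif1. Endothelial markers summed to 66.0 CPM in ES at 19 DIV and 81.4 CPM at 11 DIV, with Pecam1 and Kdr among 7 of 11 at 0.

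Immediate early and AP-1 genes were read 1 and 9 days after the stimulation day. Of 12 measured members, 4 were 2-fold higher and 0 lower in ES, beside 13.8% higher and 9.56% lower over all rows. In the unstimulated pair 3 of the 12 were 2-fold higher and 1 lower. Above equality lay 10 in ES and 11 in control, with a median of 0.45 in ES against 0.56 in control. Beside Fosl2 and Egr2, the genes 2-fold higher in ES were Junb, an AP-1 subunit (2.37 in ES and 1.01 in control), and Nr4a2, an orphan nuclear receptor (3.02 in ES and 1.12 in control). Egr1 and Jun, early response factors, had 1.01 and 0.643 in ES. Fos was under the read limit, with 527 and 184 reads in ES at 19 and 11 DIV against 458 and 21 in control at 19 and 11 DIV. Atf3, an injury response factor of sensory neurons, had 304 reads in ES at 19 DIV and 0 at 11 DIV, and 107 and 224 in control at 19 and 11 DIV.

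Contractile genes passed 2-fold about as often as all rows. Of 12 contractile genes, 2 were 2-fold higher and 1 lower, with a median of -0.11 against -0.59 in the unstimulated pair. Myh9, nonmuscle myosin, had 819.6 and 295 CPM in ES at 19 and 11 DIV, and 314 and 681 CPM in control at 19 and 11 DIV, in opposite directions. Actb, cytoplasmic beta-actin, had 0.867 in ES and 0.686 in control. Of the YAP and TGF-beta response list, 3 of 20 were measured and 2 of the 3 were 2-fold higher, with a median of 1.5 that was 0.36 over 7 members at a limit of 500 reads. The 2 were Amotl1, which binds YAP, at 2.84 in ES and 0.589 in control, and Tgfbi. Tgfbi, a secreted TGF-beta target, had 3651 and 511 reads in ES at 19 and 11 DIV, against 715 and 975 in control at 19 and 11 DIV.

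Cell cycle genes were mixed, with 2 of 9 measured members 2-fold higher, 1 lower, and a median of -0.01. The 2 were the cyclins Ccnd2, above, and Ccnd3, with 436 and 80.0 CPM in ES at 19 and 11 DIV, and 503 and 223 CPM in control at 19 and 11 DIV. Ccnd1, the third D-type cyclin, had 1.22 in ES. The proliferation genes Top2a and Mki67 had 2101 and 1765 reads and 302 and 703 reads in ES at 19 and 11 DIV. Top2a was under 2-fold and Mki67 under the read limit.

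The large housekeeping lists stayed mostly under 2-fold, beside 2-fold shares of 13.8% higher and 9.56% lower over all rows. Of 67 cytosolic ribosomal protein genes, 64 were under 2-fold and 3 lower, with a median of -0.34 against -0.73 in the unstimulated pair. Of the 67, 56 lay below equality in ES, against 46.5% of all rows. Translation factors had 2 of 21 lower, Eif5 at 0.484 and Eif3h. Nuclear-encoded oxidative phosphorylation had 1 of 46 higher and 8 lower, with a median of -0.17. Heat shock and chaperonin genes had 0 of 15 higher and 4 lower, with a median of -0.43, and proteasome subunits 1 of 14 higher and 1 lower. The lower calls among oxidative phosphorylation and heat shock genes stood above the share of all rows. In the unstimulated pair 9 of the same 46 were 2-fold lower and 6 higher, and 3 of the same 15 lower and 0 higher. Splicing factors had 2 of 21 higher and 0 lower, and histones 0 of 8 past 2-fold.

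Of the remaining lists, 5 apolipoprotein and lipid transport genes held 1 higher and 0 lower: Lrp1, an endocytic receptor, at 2.51 in ES and 1.30 in control. Apoe, a lipoprotein of satellite glia and Schwann cells, was at 0.686 in ES and 2.19 in control, and Apod, a lipocalin of peripheral nerve, at 1.81 in ES and 0.371 in control. Of 5 interferon and antigen presentation genes, 2 were higher and 0 lower, Ifitm1, a membrane protein, at 5.73 and Tapbp, which loads peptides onto class I molecules, at 3.41 in ES, against 1.15 and 0.819 in control. Of 7 p53 targets, Zmat3, an RNA-binding protein, was higher at 2.01 and Rps27l, a ribosomal protein relative, lower at 0.447. Of 5 imprinted genes, Meg3 was lower and 0 were higher, and H19, a noncoding RNA of growth, had 0.851 in ES and 0.359 in control.

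The stimulated and unstimulated pairs share no library, so their values can be set side by side. Of 1082 rows past the read limit in both pairs, 17 were 2-fold higher in both (1.57%) and 13 lower in both (1.2%). Another 7 were higher in ES and lower in control (0.647%), and 7 lower in ES and higher in control (0.647%). Those higher in both included the sheath and lamina genes Prx, Gldn, Pou3f1 and Hspg2. Those lower in both included Prdx1, Prdx6 and the 5 rows of the shared profile. Arf6, Bnip2, Frmd8, Il4ra, Myh9, Nap1l1 and Sdhb were higher in ES and lower in control. Arhgdia, Gnao1, Meg3, Nrxn2, Sncg, Sult4a1 and Wbp2 were lower in ES and higher in control. In that last group, Gnao1, a neuronal G protein alpha subunit, had 1560 and 2912 reads in ES at 19 and 11 DIV against 4053 and 1049 in control at 19 and 11 DIV, and Meg3, a maternally expressed noncoding RNA, had 236 and 715 CPM in ES at 19 and 11 DIV, and 692 and 295 CPM in control at 19 and 11 DIV. With 1 library per group, no difference between the pairs could be tested.

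Some rows had reads in 1 ES library and none in the other. Ccdc80, a secreted matrix protein, had 2163 reads in ES at 19 DIV and 0 at 11 DIV, with 339 and 188 in control at 19 and 11 DIV, and against a floor of 3 reads per library, or 0.506 CPM in ES at 11 DIV, it was at least 535-fold higher. Mcts1 had 1780 and 0 reads in ES at 19 and 11 DIV against 496 and 468 in control at 19 and 11 DIV. In the other direction, Abca8a, a lipid transporter, had 0 and 1665 reads in ES at 19 and 11 DIV against 919 and 353 in control at 19 and 11 DIV, and Ncald, a neuronal calcium sensor, had 0 and 1373 reads in ES at 19 and 11 DIV against 540 and 485 in control at 19 and 11 DIV. In these 4 genes both control libraries lay between the ES libraries, and the bounds cover counting error only.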

How the data were processed

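The authors deposited raw read counts per gene symbol in whole numbers, 1 table per library. Per the labels' protocols, the kit (input 500 ng of RNA) reads a tag near each transcript's 3′ end. Bowtie2, bedtools and mm10 stand in the submitters' processing notes. Settings, duplicate handling and strand use are not stated there, and genes that overlap are uncertain.

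Counts were scaled by TMM over the 4 libraries (edgeR 4.0.16, R 4.3.3) and given as CPM. Log2 differences used a prior count of 2. The stricter rule and its spread factor (from rows with a mean of 500 to 3000 reads) were run on simulated counts. These had the same kind of scatter in every row and less of it than the ES pair, so that check does not cover the scatter seen here. The ribosomal RNA row Rn45s took 2.65% and 3.08% of reads in ES at 19 and 11 DIV, and 2.82% and 5.18% in control at 19 and 11 DIV. Positions came from GENCODE M21, in which 22159 of 23238 symbols occurred once. Ngfrap1, Aldoa and Ppap2b were not placed.

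The members, 35 gene lists and 15 marker lists were chosen with earlier results of these data known. Named genes were the 15 highest and 15 lowest by the interval end nearer equality, in each list the 2 with most reads and the largest ratios, 26 genes of interest, and rows with most reads or with 0 in 1 library. Others among the 40 calls and the lists were named after their values were seen. Alternatives were other scalings, read limits, fold limits, intervals and thinned reads. The 95% intervals and floors cover counting error only, since amplified copies are not independent molecules; the stricter intervals widen it by the spread factor. Results that need certain withheld genes are not reported here.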

Additional observations from a re-analysis of the deposited data

Results flagged for a closer look

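Several values had opposite signs in the stimulated and unstimulated pairs, and in each case the difference between the pairs was not tested, since each group has 1 library. All values are log2 differences of 19 DIV over 11 DIV in the stimulated pair. Nrxn2 was at -8.05, Meg3 at -1.6 and Sncg at -1.0, each above equality in the unstimulated pair. Myh9 was at 1.47 and below equality in the unstimulated pair. Among list medians, fatty acid and myelin lipid synthesis was at -0.431, against 0.37 in the unstimulated pair. Sensory neuron identity factors and receptors were at -0.636, against 0.62, over 3 members. Neurotrophins, their receptors and family ligands were at -1.21, against 0.90, over 3 members, and the sign turned at a limit of 500 reads. YAP and TGF-beta response genes were at 1.5, against -0.70, over 3 members, and at 0.36 over 7 members at a limit of 500 reads. The integrated stress response was at 0.355, against -0.75, over 10 members, and its sign turned at a limit of 2000 reads.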

How the results depend on the processing

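No paired analysis was possible because each group has 1 library and the labels carry no replicate numbers, and no library could be left out. DESeq2 size factors, TMM over the ES pair, total reads and upper-quartile scaling kept all 4 counts of calls within 1.5 times. The 2-fold counts, higher and lower, were 623 and 446 at a mean of 500 reads, 57 and 36 at 2000, 2790 and 2621 at 50, and 3674 and 3838 for any read. At 1.5-fold they were 389 and 287, and at 3-fold 84 and 57. With reads thinned to 1 depth they were 130 and 128, against 203 and 141: a limit on raw reads favours rows high in the deeper ES 19 DIV library. With a 95% interval the stricter rule gave 43 higher and 37 lower. With the spread factor taken from rows with a mean of 1000 or more reads, 302.2, it gave 12 higher and 20 lower, against 16 and 24. A limit of 500 reads turned list medians for immature Schwann cell genes (-0.14), neurotrophins (0.35), splicing (-0.089) and p53 targets (0.076). A limit of 2000 turned splicing (-0.056), apolipoproteins (-0.079), integrated stress response (-0.087), cell cycle (0.28) and imprinted genes (-0.10). A limit of 50 turned neurotrophins (0.17), splicing (-0.16), p53 targets (0.19), contractile genes (0.044) and histones (0.12), and moved fibrillar collagens to 1.19 and fibroblast markers to 1.28, insulin-like growth factor genes from 1.78 to 0.067, YAP and TGF-beta genes from 1.5 to 0.28 and interferon genes from 0.69 to 0.14. Thinning turned immature Schwann cell genes (-0.29) and moved interferon genes to 0.15, glycolysis to -1.11 and myelination factors from 0.64 to 1.06. Further medians moved by over 0.35 with their sign kept: at 500 reads cell cycle genes (-0.39), at 2000 matrix proteases (0.54) and heat shock genes (-0.074), and at 50 matrix proteases (0.54), myelination factors (0.21) and immature Schwann cell genes (0.63). The cause was not tested beyond the change of members. Over the other scalings and thinning, none of 795 recomputed ratios of named genes turned a 2-fold call round, and 10 left the 95% counting interval. Without the 5 rows of the Akap5 profile, added after seeing the data, 136 rows were 2-fold lower and 19 by the stricter rule.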
